A study of Mus musculus with 8 samples.

Results

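This account covers 9 genes of aldehyde oxidation and retinoid signalling in sorted mouse mammary cells: the aldehyde dehydrogenases Aldh1a1, Aldh1a2, Aldh1a3, Aldh2 and Aldh3b1, the retinoid carriers Stra6 and Crabp2, and the retinoic acid receptors Rarb and Rarg. They were chosen by gene symbol in the array platform's annotation and are 9 of the 18194 genes with a value, carried by 16 probe sets. Each gene is led by its brightest probe set (by the mean of the 8 arrays), and its other probe sets serve as a check. Of the 9 genes, 7 passed the filter on low values and were tested. Aldh3b1 and Stra6 did not pass it and are given as levels only.

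Expression was measured on Affymetrix arrays to ask which signalling pathways C/EBPb, a transcription factor, regulates in mammary stem and progenitor cells. The 4 groups, with 2 biological replicates each, were KO CD29hi (LIN-CD24+CD29hi cells of germline C/EBPb-/- glands), WT CD29hi (the same gate from wildtype glands), KO CD29lo (LIN-CD24hiCD29lo cells of C/EBPb-/- glands) and WT CD29lo (that gate from wildtype glands). Glands came in paired sets of knockout and wildtype mice, 10 mice per group, and the knockout is in every cell of the animal rather than only in the mammary epithelium. The sources used here do not give strain, age or the mice behind each array, so p-values measure the spread between these arrays.

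Retinol taken up by a cell is oxidised to retinal by retinol dehydrogenases and then to retinoic acid by the ALDH1A enzymes. CRABP2 carries retinoic acid to the nucleus, where receptors of the RAR family, paired with RXR, switch their target genes. ALDH activity is also widely used as a stain to sort stem and progenitor cells, including those of the mammary gland.

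Values are log2 signals as deposited. A background was set on each array at the 95th percentile of 27 bacterial control probe sets and lay between 3.84 and 4.41. Cebpb, the deleted gene, read 8.60 and 9.38 in KO CD29hi against 11.95 and 12.25 in WT CD29hi, and 9.23 and 8.89 in KO CD29lo against 11.83 and 12.18 in WT CD29lo. It was lower in the knockout in both gates (CD29hi log2 fold change -3.11 ± 0.274, limma adjusted p = 0.0177, CD29lo log2 fold change -2.94 ± 0.274, limma adjusted p = 0.0271). The lead probe set, 1418901_at, stayed above background on all 8 arrays. A dimmer one, 1427844_a_at, was above it on 0 of 4 knockout arrays (2.25 to 3.23) and on 2 of 4 wildtype arrays (3.60 to 4.61). Where each probe set lies relative to the deleted part was not analysed here. The call in CD29hi was lost when any of the 4 WT arrays was left out (limma adjusted p up to 0.52), and the call in CD29lo when any array but the KO CD29hi ones was left out (up to 0.494). The basal and myoepithelial list (Krt5, Krt14 and others, 11 genes) had medians of 11.83 to 12.15 on the CD29hi arrays and 7.51 to 8.03 on the CD29lo arrays. The luminal list (Krt8, Krt18 and others, 13 genes) had medians of 8.10 to 9.14 on the CD29hi arrays and 10.67 to 10.99 on the CD29lo arrays. These lists thus ran in the direction of the gate labels, though they include genes of the sort markers themselves, Itgb1 (CD29) and Cd24a. All 11 and all 13 genes were above background on every array. Fibroblast markers also differed between the gates. Their median log2 fold change of CD29hi over CD29lo was -3.235 in the knockout and -5.18 in wildtype, beside 0.025 and 0 over all genes tested. Their part in the gate differences given below was not tested.

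The 9 genes fell into bright, variable and dim members. Aldh1a1, Aldh1a3, Aldh2, Crabp2 and Rarg were above background on all 8 arrays. Aldh1a2, an enzyme of retinoic acid synthesis, and Rarb, a receptor whose own gene is a known target of retinoic acid, were above background on 5 arrays each. Stra6, the membrane receptor for the retinol-binding protein, was above it on 3 arrays, and Aldh3b1, an enzyme that oxidises lipid-derived aldehydes, on 0 arrays. In bulk samples of this kind fewer cells of a type and less RNA per cell cannot be told apart.

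**Figure D1:**
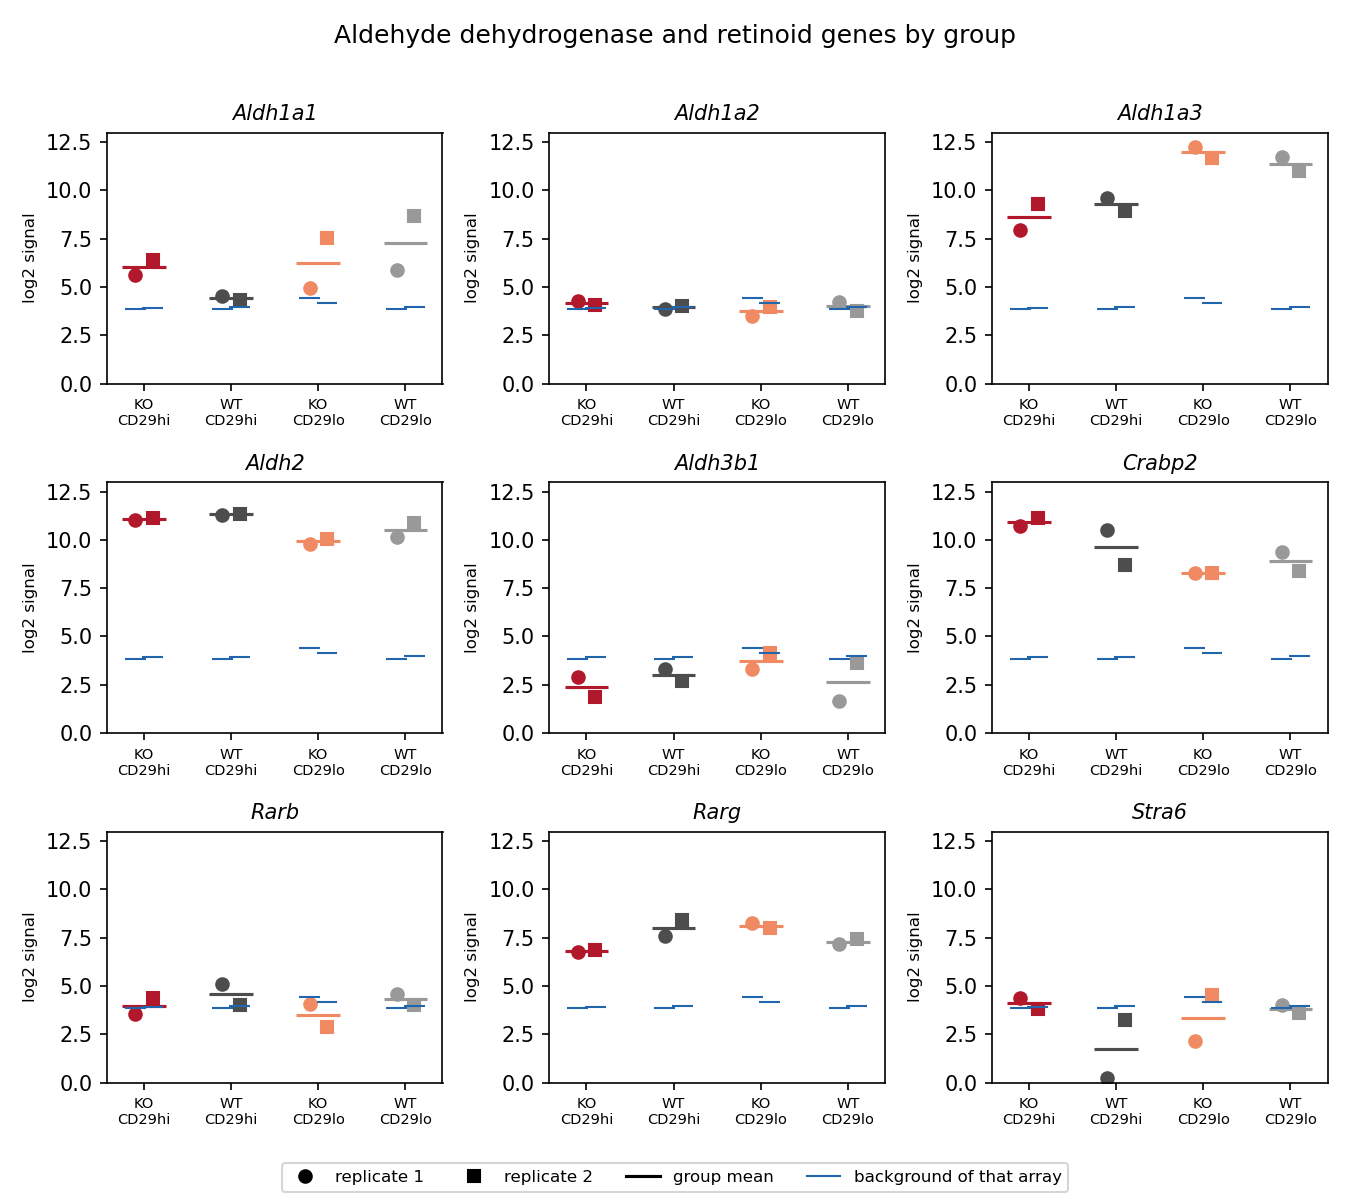
Log2 signal of the lead probe set of each of the 9 genes in the 4 groups, with 1 point per array (circle replicate 1, square replicate 2), the group mean as a bar and the background of each array as a short blue line. Aldh1a3 and Aldh2 separate the gates, Crabp2 is highest in KO CD29hi and Rarg lowest there, and Aldh1a2, Aldh3b1, Rarb and Stra6 lie near or under the background.

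No member passed the genome-wide threshold (limma, Benjamini-Hochberg adjusted p under 0.05 over 14598 genes) between knockout and wildtype in either gate, in their average or in the difference between gates. In CD29hi 0 of 7 members were called, where 0.0137% of all genes tested were called in this comparison, and in CD29lo also 0 of 7, where the share was 0.0137%. In the average over both gates 0 of 7 were called, beside 0.0685% of all genes. Of the members, 3 nevertheless had an unadjusted limma p under 0.05 in 1 gate or the other: Crabp2 and Rarg in CD29hi, where 7.84% of all genes did so, and Aldh2 and Rarg in CD29lo, where 6.68% did. The gates differed more: 4 of 7 members were called between CD29hi and CD29lo cells in the knockout, where 14.1% of all genes were, and 1 of 7 in wildtype, where 8.19% were.

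The median log2 fold change of knockout over wildtype across the 7 members was -0.22 in CD29hi and -0.58 in CD29lo, beside -0.01 and -0.06 across all genes tested. For the average over both gates the median was -0.035, beside -0.045 across all genes. The members' median for CD29hi over CD29lo was 0.42 in the knockout and 0.27 in wildtype, beside 0.03 and 0.00 across all genes. These medians include Aldh1a2 and Rarb, which lay at or close to the background. Knockout arrays did not overlap wildtype arrays for 5 of the 7 members in CD29hi (3 higher, 2 lower), where this held for 39.5% of all genes (18.3% higher, 21.2% lower), and for 3 of 7 in CD29lo (1 higher, 2 lower), where it held for 34.3% (14.7% higher, 19.6% lower). With 2 arrays against 2 such a separation is common.

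Aldh1a3, the retinal-oxidising enzyme that contributes to ALDH activity in several epithelia, had the smallest adjusted p of the members between the gates, in both genotypes. Its lead probe set read 7.94 and 9.31 in KO CD29hi, 9.62 and 8.94 in WT CD29hi, 12.23 and 11.70 in KO CD29lo, and 11.73 and 11.03 in WT CD29lo. Every CD29lo array exceeded every CD29hi array. In the knockout CD29hi cells were 10.1-fold lower than CD29lo cells (log2 fold change -3.34 ± 0.457, limma adjusted p = 0.00286). In wildtype they were 4.29-fold lower (-2.10 ± 0.457, limma adjusted p = 0.0268). The call in the knockout held in all 19 alternative settings, with limma adjusted p of at most 0.0174. The wildtype call was lost when any of the 4 WT arrays was left out (limma adjusted p 0.0522 to 0.163).

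Between genotypes Aldh1a3 averaged 8.62 ± 0.969 in KO CD29hi against 9.28 ± 0.481 in WT CD29hi, and 11.96 ± 0.375 in KO CD29lo against 11.38 ± 0.495 in WT CD29lo (SD, n = 2 each). The arrays of knockout and wildtype overlapped in both gates. The log2 fold change was -0.65 ± 0.457 in CD29hi (95% interval -1.70 to 0.39, limma adjusted p = 0.825) and 0.58 ± 0.457 in CD29lo (-0.46 to 1.63, limma adjusted p = 0.846). Without KO CD29hi replicate 1, the dimmest array, the CD29hi difference was 0.03.

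Both other probe sets of Aldh1a3 gave the same order of the gates. Probe set 1417642_at read 7.14 and 8.68 in KO CD29hi, 9.65 and 9.12 in WT CD29hi, 11.84 and 11.75 in KO CD29lo, and 11.55 and 11.12 in WT CD29lo. Here knockout and wildtype arrays did not overlap in either gate, with knockout lower in CD29hi (-1.48, limma adjusted p over all probe sets 0.507) and higher in CD29lo (0.46, limma adjusted p = 0.904). Neither difference passed the test. Probe set 1427395_a_at read 6.41 and 7.14 in KO CD29hi, 7.59 and 6.62 in WT CD29hi, 10.94 and 10.51 in KO CD29lo, and 10.03 and 9.43 in WT CD29lo. It put CD29hi below CD29lo by a log2 fold change of -3.95 in the knockout (limma adjusted p = 0.000983) and -2.62 in wildtype (limma adjusted p = 0.00807). For 1417642_at these were -3.88 (limma adjusted p = 0.00128) and -1.95 (limma adjusted p = 0.0347).

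Aldh2, the mitochondrial enzyme best known for clearing acetaldehyde, ran opposite to Aldh1a3 between the gates. It read 11.05 and 11.15 in KO CD29hi, 11.31 and 11.33 in WT CD29hi, 9.81 and 10.04 in KO CD29lo, and 10.16 and 10.86 in WT CD29lo. Every CD29hi array exceeded every CD29lo array, and within each gate both knockout arrays lay under both wildtype arrays. CD29hi was 2.26-fold higher than CD29lo in the knockout (log2 fold change 1.18 ± 0.224, limma adjusted p = 0.0111), a call lost without KO CD29hi replicate 1 (0.0658), KO CD29hi replicate 2 (0.0669) or KO CD29lo replicate 1 (0.0513). The same contrast in wildtype was 0.81 ± 0.224 and missed the threshold (limma adjusted p = 0.0668). It passed without WT CD29lo replicate 2, the brightest CD29lo array for this gene (limma adjusted p = 0.018).

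Knockout over wildtype, Aldh2 differed by -0.22 ± 0.224 in CD29hi (95% interval -0.73 to 0.29, limma adjusted p = 0.899) and by -0.58 ± 0.224 in CD29lo (-1.10 to -0.07, unadjusted p = 0.03, limma adjusted p = 0.683). Averaged over both gates the difference was -0.40 ± 0.158 (limma adjusted p = 0.489), with knockout lower in 2 of 2 gates. Knockout arrays lay below wildtype arrays in both gates, as for the lead probe set of Aldh2, for 5.56% of all genes tested.

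The lead probe set of Aldh2, 1434988_x_at, carries the platform's suffix for probes that can match more than 1 sequence, so its companions matter. Probe set 1448143_at read 10.89 and 10.94 in KO CD29hi, 11.12 and 11.22 in WT CD29hi, 9.80 and 10.19 in KO CD29lo, and 10.00 and 10.66 in WT CD29lo. Its CD29hi over CD29lo difference was 0.92 in the knockout (limma adjusted p = 0.0367) and 0.84 in wildtype (limma adjusted p = 0.0747). Probe set 1434987_at gave 1.12 in the knockout (limma adjusted p = 0.0263) and 0.73 in wildtype (limma adjusted p = 0.159). Both had knockout means under wildtype in each gate, by differences that did not pass (-0.26 and -0.11 in CD29hi, -0.34 and -0.51 in CD29lo). Neither repeated the separation of the lead probe set in both gates. Knockout and wildtype arrays of 1448143_at lay apart in CD29hi but overlapped in CD29lo. Those of 1434987_at overlapped in both gates. They read 10.66 and 10.95 in KO CD29hi against 10.87 and 10.97 in WT CD29hi. In CD29lo they read 9.51 and 9.85 in the knockout against 9.81 and 10.57 in wildtype. Probe sets 1437410_at and 1457155_at were dim, above background on 6 and 2 arrays, and 1437410_at differed between genotypes by -0.73 in CD29hi (limma adjusted p = 0.932) and in the other direction, by 0.79, in CD29lo (limma adjusted p = 0.904).

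**Figure D2:**
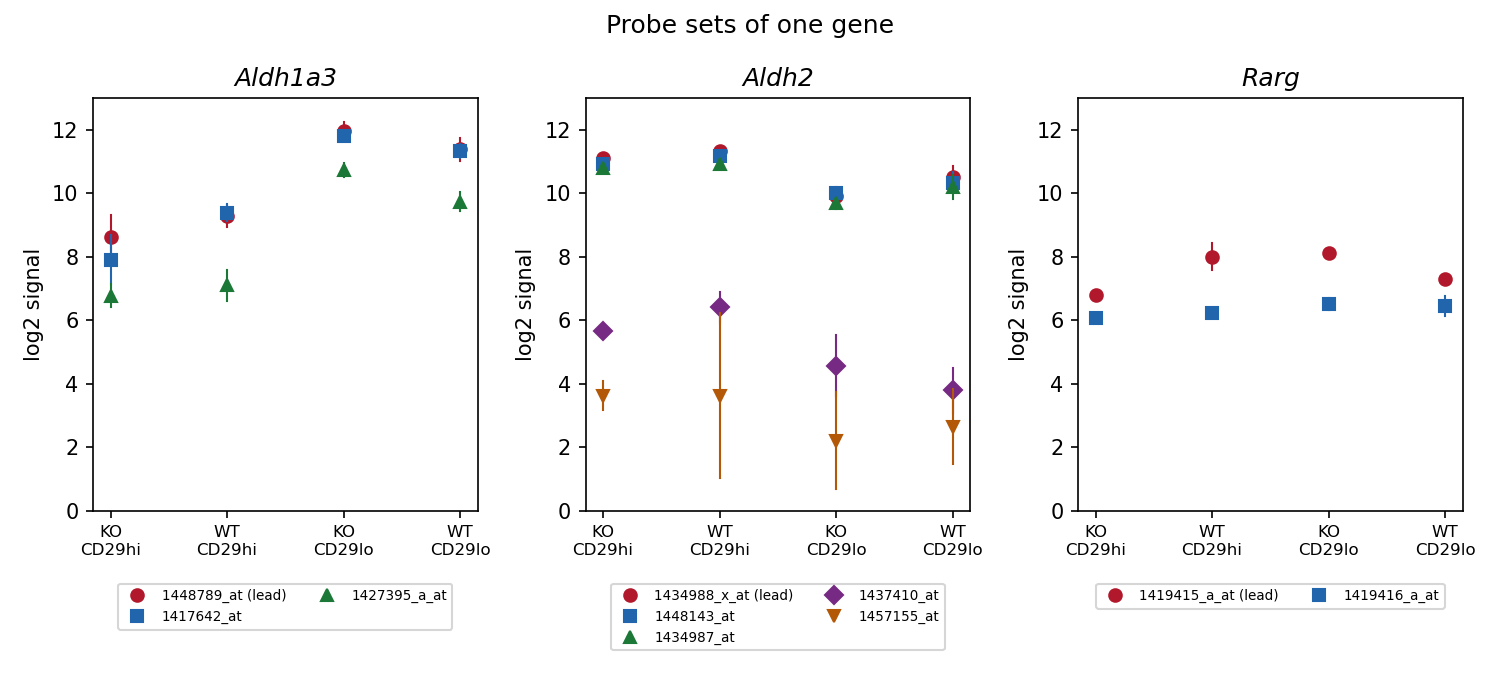
Log2 signal of every probe set of Aldh1a3, Aldh2 and Rarg in the 4 groups, with the group mean as a symbol and a line joining the 2 arrays. The 3 probe sets of Aldh1a3 and the 3 bright ones of Aldh2 keep the order of the gates, while the lower probe set of Rarg stays between 6.0 and 6.78 in every group.

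Aldh1a1, the ALDH1A enzyme most often linked to the ALDH stain, varied widely within groups and was called in no contrast. It read 5.64 and 6.38 in KO CD29hi, 4.54 and 4.35 in WT CD29hi, 4.94 and 7.52 in KO CD29lo, and 5.87 and 8.66 in WT CD29lo. The 2 CD29lo arrays of each genotype differed from each other by more than the genotypes did, while both KO CD29hi arrays lay above both WT CD29hi arrays. Knockout over wildtype was 1.56 ± 1.01 on the log2 scale in CD29hi (95% interval -0.75 to 3.88, limma adjusted p = 0.808) and -1.03 ± 1.01 in CD29lo (-3.35 to 1.28, limma adjusted p = 0.881). The CD29lo difference changed sign when 1 array was left out (it was 0.26 without KO CD29lo replicate 1, and leaving out WT CD29lo replicate 2 gave 0.36). Wildtype CD29hi cells were 7.06-fold lower than wildtype CD29lo cells (-2.82 ± 1.01), which did not pass (limma adjusted p = 0.143).

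In the knockout the gate difference of Aldh1a1 was -0.22 ± 1.01 (limma adjusted p = 0.922). Leaving out KO CD29lo replicate 2 gave 1.07. Fibroblast markers (Col1a1, Pdgfra and others, 13 genes) moved with this gene on the CD29lo arrays. Their median log2 signal was 5.50 and 7.04 in KO CD29hi, 5.40 and 7.32 in WT CD29hi, 7.74 and 11 in KO CD29lo, and 9.90 and 11.54 in WT CD29lo. On the 4 CD29lo arrays Aldh1a1 and this median had the same order, and on the 4 CD29hi arrays they did not. The log2 of the summed fibroblast signal was 12.50 and 12.79 in KO CD29hi, 12.38 and 12.75 in WT CD29hi, 12.20 and 14.85 in KO CD29lo, and 13.74 and 15.35 in WT CD29lo, with 9 to 13 of the 13 markers above background. In CD29lo all 13 were lower in the knockout (median log2 fold change -1.37), with 0 called. Over all 8 arrays the Pearson r with the fibroblast median was 0.785 for Aldh1a1, 0.714 for Aldh1a3 and 0.185 for Rarg. It was -0.545 for Aldh2 and -0.713 for Crabp2. The part of fibroblasts in the values of these genes was not tested.

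**Figure D3:**
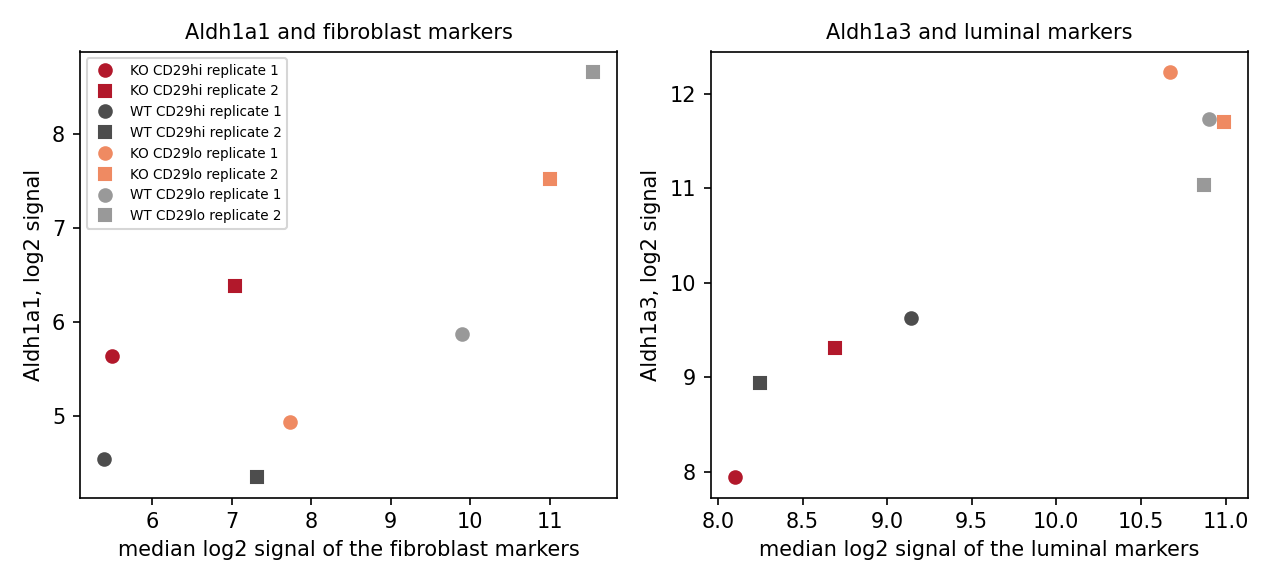
Each point is 1 array. The left panel sets the log2 signal of Aldh1a1 against the median log2 signal of the fibroblast markers, and the right panel sets Aldh1a3 against that of the luminal markers. Aldh1a1 climbs with the fibroblast median over the 4 CD29lo arrays, where that median runs from 7.74 to 11.54, and all CD29lo arrays are high for both Aldh1a3 and the luminal markers.

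Luminal markers were set beside Aldh1a3 in the same way. The order of Aldh1a3 over the 4 CD29hi arrays (lowest in KO replicate 1, highest in WT replicate 1) was also that of the luminal median, which was 8.10 and 8.69 in KO CD29hi against 9.14 and 8.25 in WT CD29hi. The mean of the same markers (8.76 and 9.21 in KO CD29hi, 9.09 and 9.23 in WT CD29hi) gave another order. On the 4 CD29lo arrays the median did not follow Aldh1a3 either. There KO replicate 1 had the lowest luminal median (10.67) and the highest Aldh1a3 (12.23). Of the 13 luminal markers 5 had a knockout value above wildtype in CD29hi and 8 below it, with 0 called and a median log2 fold change of -0.03. The widest apart were Elf5, a transcription factor of luminal progenitors, which read 3.99 and 6.94 in KO CD29hi against 9.14 and 8.17 in WT CD29hi, and Foxa1 in the other direction, which read 5.06 and 5.68 in KO CD29hi against 3.9 and 4.92 in WT CD29hi. All 13 luminal markers were above background on these arrays, and their part in the Aldh1a3 values was not tested.

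Crabp2, the carrier of retinoic acid to its receptors, was highest in KO CD29hi. It read 10.74 and 11.15 in KO CD29hi, 10.51 and 8.71 in WT CD29hi, 8.31 and 8.30 in KO CD29lo, and 9.38 and 8.39 in WT CD29lo. The knockout arrays lay above wildtype in CD29hi and below wildtype in CD29lo, in each gate by a narrow gap to the nearest wildtype array. Knockout over wildtype was 1.33 ± 0.547 in CD29hi (95% interval 0.08 to 2.59, unadjusted p = 0.0396, limma adjusted p = 0.617) and -0.58 ± 0.547 in CD29lo (-1.83 to 0.67, limma adjusted p = 0.875). The CD29hi value depended on 1 array: it was 0.43 without WT CD29hi replicate 2 and 2.23 without WT CD29hi replicate 1.

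Between the gates Crabp2 was 6.23-fold higher in CD29hi than in CD29lo cells of the knockout (log2 fold change 2.64 ± 0.547, limma adjusted p = 0.0158). The call was lost when any of the 4 KO arrays was left out (limma adjusted p 0.0516 to 0.0888). In wildtype the difference was 0.72 ± 0.547 and did not pass (limma adjusted p = 0.499), and it was -0.17 without WT CD29hi replicate 1. The difference between these 2 contrasts equals the difference of the genotype contrast between the gates, which was 1.92 ± 0.774 (95% interval 0.14 to 3.69, unadjusted p = 0.0375, limma adjusted p = 0.961). It did not pass, so a gate difference particular to the knockout was not shown.

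Rarg, the retinoic acid receptor most known from skin and other epithelia, had the smallest unadjusted p of the members between genotypes. Its lead probe set read 6.74 and 6.84 in KO CD29hi, 7.58 and 8.42 in WT CD29hi, 8.25 and 7.98 in KO CD29lo, and 7.17 and 7.41 in WT CD29lo. Knockout arrays lay below wildtype in CD29hi and above wildtype in CD29lo, and the 4 groups came in the order KO CD29lo, WT CD29hi, WT CD29lo and KO CD29hi from the highest mean down. The KO CD29lo arrays lay within the range of the WT CD29hi arrays. Knockout over wildtype was -1.21 ± 0.356 in CD29hi (95% interval -2.02 to -0.40, unadjusted p = 0.00882, limma adjusted p = 0.437) and 0.82 ± 0.356 in CD29lo (0.01 to 1.64, unadjusted p = 0.0478, limma adjusted p = 0.745). The difference between the gates was -2.03 ± 0.503 (-3.19 to -0.88, unadjusted p = 0.00342, limma adjusted p = 0.961).

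No gene of the 14598 passed for this difference between gates (0% called with limma, 4.95% at an unadjusted p under 0.05). Crabp2 and Rarg were the 2 of 7 members whose knockout arrays lay apart from wildtype in both gates and in opposite directions, which held for 4.72% of all genes. In the knockout Rarg was 2.51-fold lower in CD29hi than in CD29lo cells (log2 fold change -1.32 ± 0.356, limma adjusted p = 0.0425), and in wildtype the difference was 0.71 ± 0.356 (limma adjusted p = 0.293). The call in the knockout was lost in 12 of 19 alternative settings, among them leaving out any KO array or either WT CD29lo array (limma adjusted p 0.0584 to 0.194).

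The other Rarg probe set did not show this pattern. Probe set 1419416_a_at read 6.0 and 6.16 in KO CD29hi, 6.36 and 6.09 in WT CD29hi, 6.33 and 6.69 in KO CD29lo, and 6.12 and 6.78 in WT CD29lo. Knockout and wildtype overlapped in both gates, with a difference of -0.14 in CD29hi (limma adjusted p = 0.979). The difference in CD29lo was 0.06 (limma adjusted p = 0.987). Its CD29hi over CD29lo difference in the knockout was -0.43 (limma adjusted p = 0.547). Which transcripts of Rarg each probe set detects was not analysed here.

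**Figure D4:**
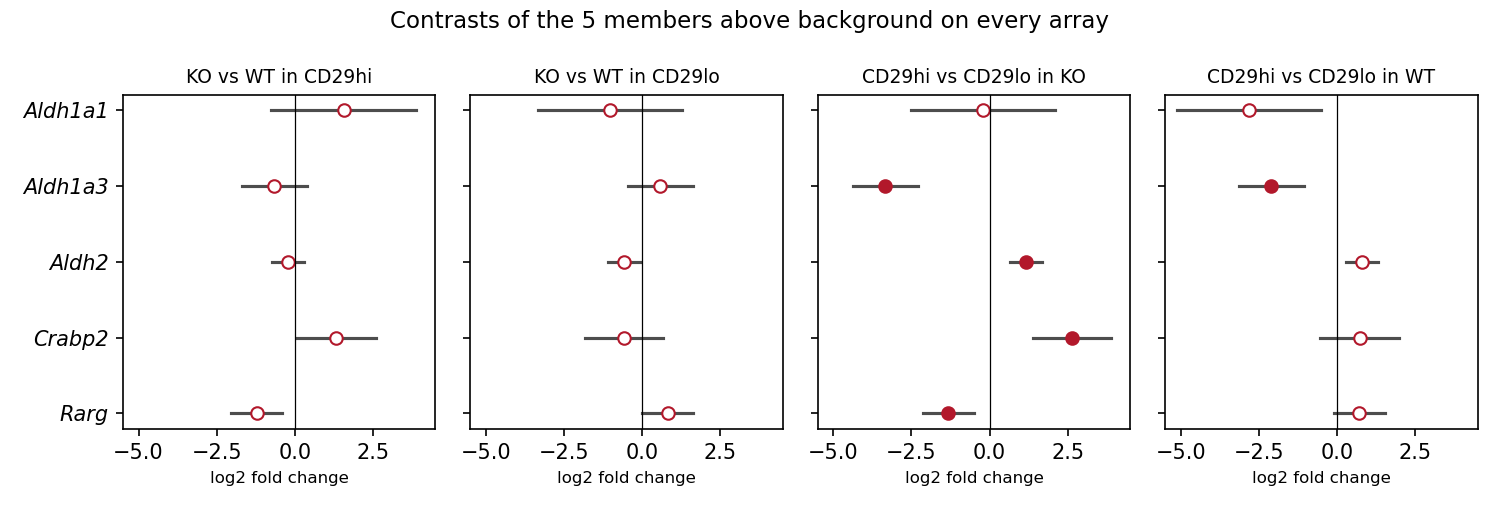
Log2 fold changes (points) with 95% intervals (lines) of the 5 members above background on every array, in 4 contrasts. Filled points passed a limma adjusted p of 0.05: none between knockout and wildtype, Aldh1a3, Aldh2, Crabp2 and Rarg between gates in the knockout, and Aldh1a3 in wildtype.

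The dim members are given by level. Rarb read 3.54 and 4.36 in KO CD29hi, 5.11 and 4.03 in WT CD29hi, 4.09 and 2.88 in KO CD29lo, and 4.57 and 4.03 in WT CD29lo. It was above background on 1 KO CD29hi array, both WT CD29hi arrays, 0 KO CD29lo arrays and both WT CD29lo arrays, and knockout and wildtype overlapped in each gate. Aldh1a2 read 4.28 and 4.05 in KO CD29hi, 3.88 and 4.02 in WT CD29hi, 3.52 and 3.97 in KO CD29lo, and 4.23 and 3.76 in WT CD29lo, at or near the background throughout. Stra6 read 4.40 and 3.79 in KO CD29hi, 0.21 and 3.24 in WT CD29hi, 2.15 and 4.51 in KO CD29lo, and 4.0 and 3.59 in WT CD29lo. Aldh3b1 stayed between 1.65 and 4.14, under the background of each array. No fold change is given for these 4 genes, since their groups were at or close to the background.

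The promoters printed are those of the receptor genes among the members, Rarb and Rarg. Each holds a match to letters linked to C/EBP factors or nuclear receptors. An Aldh1a1 promoter and the Aldh3b1 promoter hold a match too and are described below without their sequence. Of the printed promoters, only that of Rarb holds the spaced repeat of the retinoic acid response element. The window is the 250 bases before the start of a RefSeq transcript (RefSeq promoters, build GRCm38.p6), and entries were used for 6 of the 9 genes, with 11 promoters. Aldh1a3, Aldh2 and Crabp2 have no entry here. Searched on both strands were the C/EBP-type motif TTGCNNAA, found in 9.56% of all 32851 promoters of this length, the nuclear receptor hexamer AGGTCA (14%) and the spaced repeat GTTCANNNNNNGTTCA of the retinoic acid response element (0.067%, 22 promoters). Capitals mark matches and each sequence runs 5′ to 3′ on the gene's strand.
Rarb promoter, chr14:16575477-16575726, minus strand: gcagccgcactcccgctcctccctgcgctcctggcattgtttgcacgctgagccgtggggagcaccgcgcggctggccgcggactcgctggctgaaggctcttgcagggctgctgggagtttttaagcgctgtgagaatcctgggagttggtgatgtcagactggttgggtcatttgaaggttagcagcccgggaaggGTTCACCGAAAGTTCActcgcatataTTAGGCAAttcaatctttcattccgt
Rarg promoter at the start further along the gene's strand, chr15:102246501-102246750, minus strand: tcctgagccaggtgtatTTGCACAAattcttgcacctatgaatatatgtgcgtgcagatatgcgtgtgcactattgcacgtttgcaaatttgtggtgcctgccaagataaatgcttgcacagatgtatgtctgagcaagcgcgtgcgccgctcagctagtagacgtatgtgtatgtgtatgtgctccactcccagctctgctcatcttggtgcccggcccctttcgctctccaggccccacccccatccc
Rarg promoter at the start further upstream, chr15:102257523-102257772, minus strand: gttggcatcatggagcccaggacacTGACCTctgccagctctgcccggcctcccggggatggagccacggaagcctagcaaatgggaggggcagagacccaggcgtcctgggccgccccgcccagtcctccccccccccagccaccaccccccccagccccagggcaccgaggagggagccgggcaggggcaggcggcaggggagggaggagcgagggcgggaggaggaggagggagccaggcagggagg

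The Rarb window holds the spaced repeat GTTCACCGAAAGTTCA, whose first base lies 52 bases before the start, and a C/EBP-type match beginning 26 bases before it. Rarb is the member whose own gene is the textbook target of retinoic acid, and its signal above stayed between 2.88 and 5.11. The first Rarg window holds a C/EBP-type match 233 bases before the start, and the other holds the hexamer on the opposite strand 225 bases before the start. Of the remaining genes, an Aldh1a1 promoter (chr19:20492333-20492582) holds a C/EBP-type match 13 bases before the start, and the Aldh3b1 promoter (chr19:3929779-3930028) holds the hexamer at 2 positions. The other Aldh1a1 promoter (chr19:20601718-20601967), further along the gene's strand, holds no match. The Aldh1a2 and Stra6 promoters hold no match to these letters. A match is a description of the letters and none was tied to a difference between groups.

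The rest of the pathway was read from 6 lists of related genes. In no list was any gene called between knockout and wildtype in either gate, in their average or in the difference between gates (limma). Among other aldehyde dehydrogenases (13 of 15 tested) the median log2 fold change of knockout over wildtype was 0.14 in CD29hi and 0.15 in CD29lo, beside -0.01 and -0.06 over all genes. Aldh16a1 had the smallest genotype p in CD29hi (-1.49 on the log2 scale, limma adjusted p = 0.613). Between the gates, 3 of these 13 were higher and 1 was lower in CD29hi of the knockout, and 2 were higher and 0 lower in wildtype. Over all genes tested 7.41% were higher and 6.66% lower in the knockout, and 3.96% higher and 4.23% lower in wildtype. Aldh1l2, a mitochondrial folate enzyme, read 10.90 and 10.84 in KO CD29hi, 10.23 and 10.43 in WT CD29hi, 7.46 and 8.25 in KO CD29lo, and 7.74 and 8.69 in WT CD29lo. Its CD29hi arrays all exceeded its CD29lo arrays (log2 fold change 3.02, limma adjusted p = 0.00167 in the knockout, and 2.12, limma adjusted p = 0.0105 in wildtype). Aldh18a1, which makes the precursor of proline, was also higher in CD29hi (1.97, limma adjusted p = 0.00258 in the knockout, and 1.18, limma adjusted p = 0.0303 in wildtype). Aldh1b1 was at or under background in both KO CD29lo arrays and was at least 5.02-fold higher in KO CD29hi (limma adjusted p = 0.0374), and Aldh3a2, a fatty aldehyde dehydrogenase, was lower there (-1.18, limma adjusted p = 0.0429). In wildtype both had the same direction and were not called (Aldh1b1 1.52, limma adjusted p = 0.367, and Aldh3a2 -0.305, limma adjusted p = 0.639).

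Of the list for retinoid uptake, transport and storage 8 of 12 genes were tested. Crabp1, the other cellular carrier of retinoic acid, read 2.19 and 2.02 in KO CD29hi, 3.29 and 2.39 in WT CD29hi, 4.19 and 7.91 in KO CD29lo, and 7.44 and 9.39 in WT CD29lo. It was above background on 3 arrays, all CD29lo. In wildtype it was at least 23.0-fold lower in CD29hi (limma adjusted p = 0.0195), and in the knockout the difference did not pass (limma adjusted p = 0.0515). Its CD29lo arrays had the same order as the fibroblast median given for Aldh1a1, whose part was not tested. Fabp5, which carries fatty acids and retinoic acid to the nuclear receptor PPARd, read 9.58 and 10.06 in KO CD29hi against 11.18 and 12.03 in WT CD29hi, and 9.77 and 8.69 in KO CD29lo against 10.56 and 9.82 in WT CD29lo. Its difference of -1.78 ± 0.428 in CD29hi was not called (limma adjusted p = 0.307), nor was that of -0.96 in CD29lo (limma adjusted p = 0.749).

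Of the retinol and retinal oxidoreductases 12 of 19 were tested, with medians of knockout over wildtype of -0.21 in CD29hi and -0.19 in CD29lo, beside -0.01 and -0.06 over all genes. In CD29hi 9 of the 12 had a knockout value under wildtype, in CD29lo also 9, and in both gates 8. The share of all genes tested with a knockout value under wildtype was not computed, so these counts have no reference. None of the 12 was called between genotypes. Some of the differences were small, such as those of Adh5 (-0.165 in CD29hi and -0.05 in CD29lo). Dhrs7, a short-chain dehydrogenase, had the smallest genotype p of the list and read 8.34 and 8.48 in KO CD29hi against 8.92 and 9.11 in WT CD29hi, and 7.93 and 7.63 in KO CD29lo against 8.55 and 8.97 in WT CD29lo. Its average difference of -0.79 ± 0.193 was not called (limma adjusted p = 0.285), and it ran from -0.90 to -0.33 over 18 alternative settings. Adh7, an alcohol dehydrogenase that oxidises retinol, read 7.76 and 8.35 in KO CD29hi against 10.16 and 10.24 in WT CD29hi, and 4.01 and 7.65 in KO CD29lo against 7.83 and 9.12 in WT CD29lo. All 4 knockout arrays lay under the wildtype arrays of their gate, which held for 5.56% of all genes tested. The Adh7 differences of -2.14 and -2.64 were not called (limma adjusted p = 0.672 for the CD29hi gate and 0.683 for the CD29lo gate). The average of both, -2.39 ± 0.701, was not called either (limma adjusted p = 0.346). Across 18 alternative settings this average lay between -3.305 and -1.485. Its most negative value came from dropping KO CD29lo replicate 2. The KO CD29lo group then rested on replicate 1 alone, whose Adh7 signal of 4.01 lay under that array's background of 4.41. Dropping both CD29lo arrays numbered 2 kept the same dim array and gave -2.98. Rdh10, the retinol dehydrogenase that supplies retinal to the ALDH1A enzymes, was lower in CD29hi than in CD29lo in both genotypes (-1.32, limma adjusted p = 0.00687 in the knockout, and -1.38, limma adjusted p = 0.00827 in wildtype), the direction of Aldh1a3. Dhrs3, which turns retinal back to retinol, was lower in CD29hi of the knockout (-2.43, limma adjusted p = 0.0262) and Rdh11 higher (1.78, limma adjusted p = 0.00886). In wildtype both had the same direction and were not called (Dhrs3 -1.33, limma adjusted p = 0.219, and Rdh11 1.25, limma adjusted p = 0.0511).

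Among the receptors and cofactors all 12 with a value were tested, and Rara, Rxra, Rxrb and Rxrg were above background on 8 arrays. Between genotypes the coactivator Ncoa1 had the smallest p in CD29hi (-0.74, limma adjusted p = 0.621). Only the cofactors Nrip1 (0.60, limma adjusted p = 0.0401) and Ncoa2 (-0.61, limma adjusted p = 0.0417) were called between gates, in the knockout. In wildtype they had the same directions (Nrip1 0.315, limma adjusted p = 0.296, and Ncoa2 -0.50, limma adjusted p = 0.11). Of the breakdown enzymes Cyp26b1 was tested and not called, and Cyp26a1 was above background on 0 arrays. Of the known retinoic acid targets 13 of 20 were tested. In CD29hi against CD29lo, Pdgfa was higher in both genotypes (1.17, limma adjusted p = 0.00375 in the knockout, and 1.25, limma adjusted p = 0.00395 in wildtype) and Foxa1, also on the luminal list, was lower in both (-4.83, limma adjusted p = 0.000404, and -5.37, limma adjusted p = 0.000327). Dhrs3 counts here too in the knockout, and in wildtype Meis1 (-1.40, limma adjusted p = 0.0321) and Meis2 (at least 9.69-fold lower, limma adjusted p = 0.0194) were lower. In the knockout neither was called (Meis1 -0.51, limma adjusted p = 0.337, and Meis2 0.76, limma adjusted p = 0.696). Meis2 read 3.17 and 6.39 in KO CD29lo against 6.28 and 8.05 in WT CD29lo, the same order as the fibroblast median on these arrays, whose part was not tested. Meis1 and Meis2 also had the smallest genotype p of this list in CD29hi, where Meis1 was 1.12 (limma adjusted p = 0.407) and Meis2 was at least 3.14-fold higher in the knockout (limma adjusted p = 0.424), neither called. Over 19 alternative settings this log2 difference of Meis1 ran from 0.15 to 1.26. With 1 array left out at a time, the gate calls of Aldh1l2, Aldh18a1 and Rdh10 in the knockout and of Foxa1 and Pdgfa in both genotypes held in 8 of 8 fits. Each other gate call in these lists was lost in at least 1 fit. Rdh11 was lost without KO CD29hi replicate 1, Dhrs3 without that array or KO CD29lo replicate 2, and Aldh1b1 without any of the KO arrays. In wildtype Crabp1 and Meis2 were lost without WT CD29lo replicate 2 or either WT CD29hi array, Aldh1l2 without WT CD29lo replicate 1 or either WT CD29hi array, and Rdh10 without WT CD29hi replicate 2 or WT CD29lo replicate 1. Aldh18a1 in wildtype was lost without WT CD29lo replicate 1 or any CD29hi array, and Aldh3a2, Ncoa2, Nrip1 and Meis1 were each lost in 6 of 8 fits, which included those without any array of their own contrast.

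**Figure D5:**
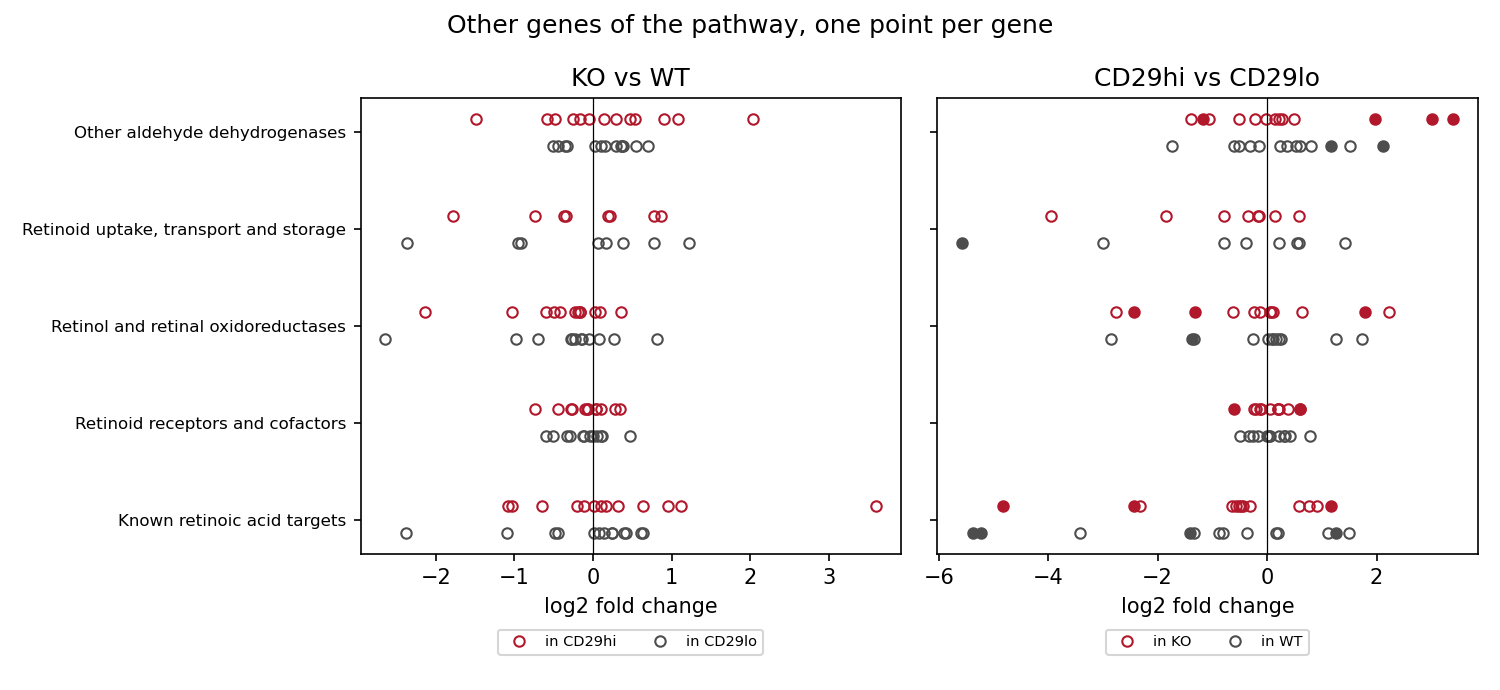
Log2 fold change of every tested gene in 5 lists of pathway genes, 1 point per gene, knockout over wildtype on the left (red in CD29hi, grey in CD29lo) and CD29hi over CD29lo on the right (red in the knockout, grey in wildtype). Filled points passed a limma adjusted p of 0.05, and filled points appear only in the right panel.

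The genes whose pattern over the 8 arrays was most like that of a member were found by Pearson correlation among all genes tested, given as a description over arrays that share the gates. Closest to Aldh1a3 were Pik3cg (r = 0.99), Sbsn (0.989) and AU018091 (0.989), and closest to Aldh2 were Smarca1 (0.996), Fzd2 (0.991) and Spon2 (0.99). Crabp2 was nearest to Phf2 (0.976), Ubxn4 (0.967) and Snrnp40 (0.963). Rarg was nearest to Dusp11 (0.956), Angptl1 (0.954) and Tmem218 (0.953), and Aldh1a1 to Stmn4 (0.98), Gps2 (0.979) and Nfkbil1 (0.967). For the dim members the nearest genes were Ice2 (0.981), Cep57 (0.974) and Camk2a (0.96) for Rarb and A330009N23Rik (0.938), Elavl3 (0.934) and Trak2 (0.93) for Aldh1a2.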

How the data were processed

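The 8 arrays hold 1 log2 value per probe set, as the authors deposited them. The log2 scale was read from the values (0 to 14.42), and the authors' normalization is not given in the sources used here. Array medians were close to each other (5.45 to 5.67), and no further normalization was applied. Per the labels' protocols, RNA was isolated with the Arcturus PicoPure kit and amplified with a NuGEN FFPE kit before labelling with biotin, which may compress or distort low signals.

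Of 45101 probe sets, 34958 carry 1 gene in the platform annotation, 932 several and 9211 none, and 34754 matched a RefSeq gene ID (names only). The brightest probe set stood for each of 18194 genes, and the 14598 at or over the 25th percentile of probe set means (3.51) entered limma (version 3.58.1, R 4.3.3, lmFit on 4 groups, eBayes with a trend, 4 residual and 4.31 prior degrees of freedom, two-sided, Benjamini-Hochberg over all genes, threshold 0.05). Values with ± are log2 fold changes with SE or means with SD. Where both arrays of a group lay at or under the background, a fold is given against the background as "at least". The fit was run on simulated arrays with independent normal errors of the fitted spread, no gate differences and known changes in some genes. That run checks the computation and not whether the model suits these arrays. Plots used matplotlib 3.10.9 and Python 3.11.15.

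The members, the pathway and marker lists and the tests were chosen with earlier results of these data known. Named are the 9 members, Cebpb, from each list the genes called between groups and a selection of the 3 of smallest p per contrast, and the 3 genes most like each member. Groups of 2 arrays limit the precision, and other probe sets of a member were tested in a fit over all probe sets, an addition made after seeing the data. Alternatives were quantile normalization, other filters, the mean of probe sets, no variance trend, a floor of 4, blocks, and left-out arrays.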

Additional observations from a re-analysis of the deposited data

Results flagged for a closer look

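For 3 of the members' 16 probe sets the knockout arrays lay apart from the wildtype arrays in both gates and in opposite directions. Over all genes tested, each by its lead probe set, this held for 4.72%. Because the probe sets were picked this way, the genotype difference in CD29hi minus that in CD29lo is large by construction. It was -2.03 (log2) for the lead probe set of Rarg, lower in the knockout in CD29hi and higher in CD29lo, 1.92 for Crabp2, higher in the knockout in CD29hi and lower in CD29lo, and -1.94 for Aldh1a3 probe set 1417642_at, lower in the knockout in CD29hi and higher in CD29lo. The difference itself was tested with limma and passed for none of them (adjusted p = 0.961 for Rarg and Crabp2, 0.975 for the Aldh1a3 probe set). The companion probe set of Rarg differed by -0.20 (limma adjusted p = 0.993) and the lead probe set of Aldh1a3 by -1.24 ± 0.646 (limma adjusted p = 0.961). Aldh1a3 probe set 1427395_a_at differed by -1.325 (limma adjusted p = 0.975).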

How the results depend on the processing

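The 0 members called between knockout and wildtype in each gate, averaged and between gates stayed 0 in every alternative run. Between gates in the knockout the count of 4 was 2 with the mean of probe sets and 1 without the variance trend, and it ranged from 1 to 4 with 1 array left out. In wildtype the count of 1 was 0 without the trend and 2 with both CD29lo arrays numbered 2 left out, and it ranged from 0 to 1 with 1 array left out. With the replicate number as a block (replicate block) the wildtype count was 2, since Aldh2 was added (limma adjusted p = 0.0369). Same-numbered arrays correlated by 0.00563 to 0.321 in their deviations from group means. The highest value was between KO CD29lo and WT CD29lo, and the lowest between KO CD29hi and WT CD29hi. The labels do not say that the number marks the paired set, so the number was used as a block only in this alternative. Signs turned only in contrasts that were not called: the Aldh2 difference between gates was -0.045 with the mean of probe sets, and the Aldh1a1 gate difference in the knockout was 1.07 with both CD29lo arrays numbered 2 left out. With 1 array left out the Aldh1a1 gate difference in the knockout ranged from -1.51 to 1.07 (0.15 without KO CD29hi replicate 1), the Aldh1a1 genotype difference in CD29lo from -2.43 to 0.36, the Aldh1a3 genotype difference in CD29hi from -1.34 to 0.03 and the Crabp2 gate difference in wildtype from -0.17 to 1.62. The causes were not tested, other than leaving out an array reduces its group to 1 array, taken to vary as the other groups do. Fits on only the arrays compared do not apply to the average and the difference between gates. Signals near background limit Aldh1a2, Aldh3b1, Rarb and Stra6.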
